A study of Mus musculus with 2 samples.

Results

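The Sox genes encode transcription factors that bind DNA through a high mobility group (HMG) box, a domain that enters the minor groove and bends the helix. They fall into subgroups by the similarity of this box. Described here are 10 mouse Sox genes, Sox2, Sox4, Sox5, Sox6, Sox7, Sox9, Sox13, Sox17, Sox18 and Sox21, out of 18919 genes in the expression table, found by their gene symbols. Of the 20 mouse genes of the family, 15 have values, and the 5 others in the table (Sox8, Sox10, Sox11, Sox12 and Sox15) are given beside the 10. Sry, Sox1, Sox3, Sox14 and Sox30 were not found there by symbol, and only their transcript sequences were used. The 10 genes were selected on their FPKM in both samples, with the difference between the samples known, so their values are a description and test nothing.

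RNA came from the intestine of C57BL/6 mice that all carried the Min mutation of the tumour suppressor Apc, a strain in which intestinal adenomas form. The knockout pool was APCmin; Setd2IEC-/-, in which Setd2, which encodes the enzyme that places the trimethyl mark on lysine 36 of histone H3, was deleted in intestinal epithelial cells. The control pool carried APCmin alone. Mice were 2 months old, and the RNA of 3 littermates was pooled into 1 library for each genotype, so differences have no replicate check and no test between genotypes was possible. The promoter that drove the deletion is not given in the sources used here, and cells outside the epithelium kept Setd2.

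In the adult intestine, Sox9 is a target of Wnt signalling that marks crypt base, Paneth and transit-amplifying cells. Sox4 is linked to tuft and enteroendocrine cell formation. The SoxF genes Sox7, Sox17 and Sox18 act in blood and lymph vessels, and Sox17 is also a regulator of embryonic endoderm and of the bile ducts. Sox2 specifies stomach and oesophagus during foregut development. The SoxD genes Sox5, Sox6 and Sox13 lack a transactivation domain and modulate other factors, best known from cartilage, where Sox5 and Sox6 work with Sox9.

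The HMG box is what makes these genes a family. It was located in GENCODE M21 transcripts (GRCm38, the build of the files) by a search of their translations for the amino acids RPMNAF. A set length of 79 codons (237 bases) was then cut, and all 10 genes gave such a stretch. The first 30 bases of the box are printed for each gene, with capitals at the 15 positions where all 10 genes have the same base. Each printed stretch ends with the codons of RPMNAF, so most of the capitals were fixed by the search and are no check of the family label.
Sox2: gacCgcgTcaaGaGgCCcATGAAcGCcTTc
Sox21: gacCacgTcaaGcGgCCcATGAAcGCcTTc
Sox4: ggcCacaTcaaGcGgCCcATGAAcGCcTTt
Sox5: cccCacaTaaaGcGtCCaATGAAtGCcTTc
Sox6: cccCacaTcaaGcGaCCaATGAAtGCgTTc
Sox13: agcCacaTcaaGaGaCCcATGAAtGCcTTc
Sox9: ccaCacgTcaaGcGaCCcATGAAcGCcTTc
Sox7: agcCggaTccgGcGgCCcATGAAtGCcTTc
Sox17: tctCgcaTccgGcGgCCgATGAAcGCcTTt
Sox18: ttgCgcaTtcgGcGgCCcATGAAcGCcTTc
Over the whole box, the coding bases were 76.8% to 84.8% identical in the 6 pairs of genes from the same subgroup and 53.6% to 87.8% in the 39 other pairs. The pair with the highest identity, 87.8%, was Sox2 and Sox21, which belong to the sister subgroups SoxB1 and SoxB2. The longest run of identical bases between any pair was 38, also in Sox2 and Sox21. No stretch of 50 bases was shared between transcripts of any of the 10 genes and those of another Sox gene. The authors' read counts, which are expected values that can divide a read among genes, were whole numbers in both libraries for 8 of the 10. The exceptions were Sox5 and Sox7, where fractions remained.

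The knockout library held 8646358 expected counts and the control library 8809678. Setd2 itself was at 3.47 FPKM in the knockout pool, against 6.87 FPKM in the control pool, with counts of 254 in the knockout library and 513 in the control library. FPKM is the authors' level per length of transcript and per sequencing depth, and counts scaled to the library total are given as CPM. Enterocyte transcripts, among them the chylomicron apolipoprotein Apoa4 at 5765 FPKM in the knockout pool and 8881 FPKM in the control pool, were abundant in both libraries, as the tissue label says. A gene is called measured if either library reached an FPKM of 1, as 13253 genes did. Differences are given as log2 of (FPKM + 1) in the knockout pool over (FPKM + 1) in the control pool, and 2-fold means a ratio of 1 or more, or -1 or less, on that scale. Count ratios carry a 95% interval for the error of counting alone, which leaves out variation between mice.

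Of the 10 Sox genes, 7 were measured, and 2 of these, Sox17 and Sox21, were higher by 2-fold or more in the knockout pool. Among all measured genes 2.78% were higher by 2-fold or more. Of the 7, 0 were lower by 2-fold or more, against 1.28% of all measured genes. Sox17 and Sox21 had a control FPKM under 1 and counted as measured through the knockout pool alone. The counting interval of the ratio lay above 1 for 4 of the 7 (Sox17, Sox21, Sox9 and Sox4), against 28% of all measured genes, and below 1 for 0, against 12.5%. The median log2 ratio of the 7 was 0.70, and that of all measured genes was 0.08. All 7 had a log2 ratio above 0 as deposited, as did 62.5% of all measured genes, but Sox6 and Sox13 were below 0 after scaling by the median ratio or by TMM factors. As the genes were chosen with these values known, nothing is read from their counts against the shares of all genes.

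**Figure D1:**
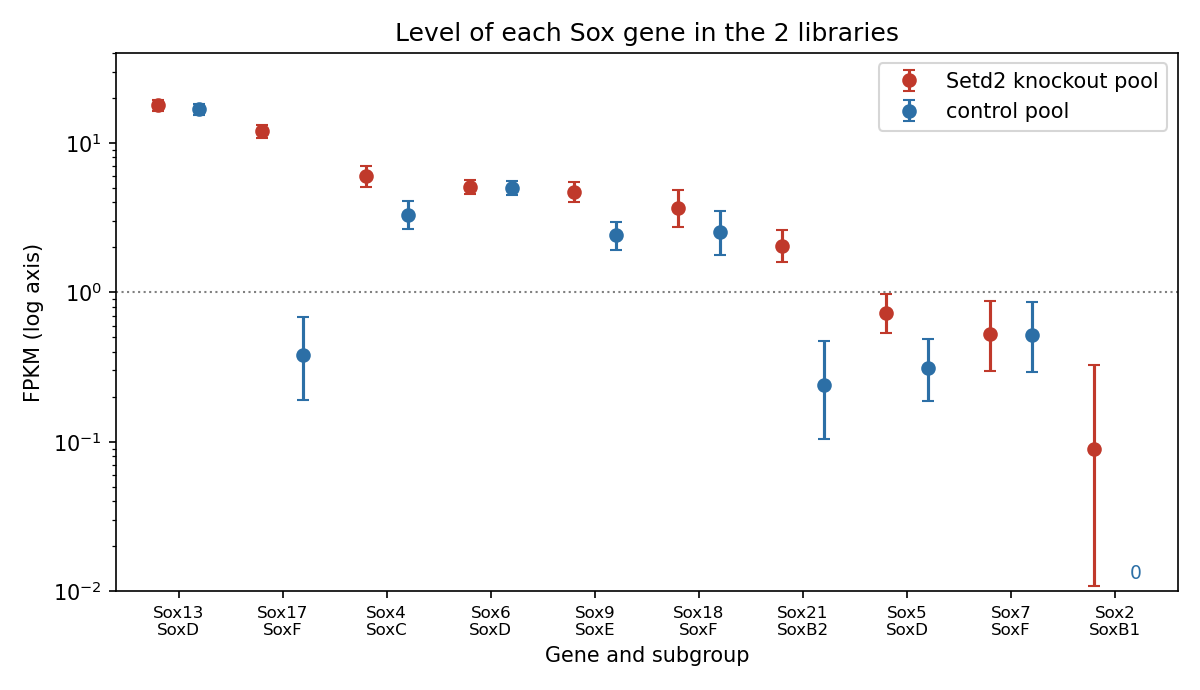
Levels of the 10 Sox genes. The vertical axis is FPKM on a log scale and the horizontal axis lists the genes with their subgroup, in order of their level in the knockout pool; red points are the knockout pool and blue points the control pool, 1 library each, bars are 95% counting intervals and the dotted line is an FPKM of 1. Sox17 is at 11.95 FPKM in the knockout pool and 0.38 FPKM in the control pool, while Sox13, Sox6 and Sox7 have nearly equal points; Sox2 has 0 counts in the control pool.

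The order of the levels was not the same in both pools. In the knockout pool it was Sox13, Sox17, Sox4, Sox6, Sox9, Sox18, Sox21, Sox5, Sox7 and Sox2. In that order the counting intervals of Sox4, Sox6, Sox9 and Sox18 overlapped one after another, and so did those of Sox5, Sox7 and Sox2, while Sox21 lay apart from both Sox18 and Sox5. In the control pool the order was Sox13, Sox6, Sox4, Sox18, Sox9, Sox7, Sox17, Sox5 and Sox21, with Sox2 at 0. There the intervals of Sox4, Sox18 and Sox9 overlapped one after another, and so did those of Sox7, Sox17, Sox5 and Sox21, while Sox6 lay apart from Sox4 and Sox9 from Sox7. Sox17 was thus second only to Sox13 in the knockout pool and among the 5 lowest of the 10 in the control pool. The summed FPKM of the 10 genes was 52.65 in the knockout pool and 31.54 in the control pool. Sox17 made up 22.7% of that sum in the knockout pool and 1.20% in the control pool, and Sox13 made up 33.9% in the knockout pool and 53.4% in the control pool. The summed counts had a ratio of 1.56 (95% counting interval 1.44 to 1.68), which was 1.26 (1.16 to 1.36) without Sox17. Both sums are of genes chosen with their values known, and neither was worked out under other scalings.

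Among the SoxF genes, Sox17 (gene identifier 20671, chromosome 1, 4490931 to 4497354 in GENCODE, minus strand) was at 11.95 FPKM in the knockout pool, with 355 counts, against 0.38 FPKM in the control pool, with 11 counts. Its counting intervals, 10.7 to 13.3 FPKM in the knockout pool and 0.190 to 0.680 FPKM in the control pool, lay far apart. The ratio of scaled counts was 32.9 (18.2 to 66.5) and the log2 ratio was 3.23, the value at rank 31 of the 13253 measured genes. Among the 127 measured genes whose orthology description in the authors' table holds the words transcription factor, Sox17 had the highest log2 ratio. Of these, 3 were higher by 2-fold or more: Sox17, Sox21 and Pitx1 (20.76 FPKM in the knockout pool, 3.09 FPKM in the control pool), which was named after its value was seen. The match to these words is not a full list of such factors. It leaves out Foxd3, for example, which had a log2 ratio of 1.10.

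Sox18, a regulator of lymphatic and blood vessel formation (chromosome 2, 181669836 to 181671640), was at 3.66 FPKM in the knockout pool and 2.53 FPKM in the control pool, a count ratio of 1.44 (0.924 to 2.28). Sox7, which acts early in blood vessel development (chromosome 14, 63943673 to 63950732), was at 0.53 FPKM in the knockout pool and 0.52 FPKM in the control pool, from 15 rounded counts in each, a ratio of 1.02 (0.464 to 2.24) whose sign turned under those scalings. The interval of each includes 1 and neither overlaps that of Sox17. Markers of blood vessel endothelium had a median log2 ratio of 0.26 over 14 measured genes, with 13 above 0, 1 higher by 2-fold or more and 0 lower, and a summed level of 105.6 FPKM in the knockout pool against 84.96 FPKM in the control pool. That count was 0 after scaling by the median ratio or TMM. The gene past 2-fold was the adhesion protein Cdh5, at 6.87 FPKM in the knockout pool and 2.89 FPKM in the control pool. Plvap, which forms the diaphragms of capillary pores, was at 39.11 FPKM in the knockout pool and 34.47 FPKM in the control pool, and the junction protein Cldn5 was at 1.23 FPKM in the knockout pool and 1.93 FPKM in the control pool. Of 5 lymphatic endothelial markers, 3 were above 0 and none was past 2-fold, with a median of 0.16. The list was split by counts. Prox1, at a log2 ratio of 0.98, had 57 counts in the knockout pool and 11 in the control pool, a ratio of 5.28 (2.74 to 11.2). Prox1 is also on the list of Wnt targets given below. Ccl21a had a ratio of 0.714 (0.562 to 0.906). The part of vessel cells in the levels of the SoxF genes was not tested, and in whole tissue more cells of a type and more RNA per cell cannot be told apart.

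The deposited transcript length of Sox17, which enters its FPKM, was 3409 bases in the knockout pool and 3288 bases in the control pool. The FPKM ratio was 31.4, slightly below the count ratio of 32.9. Of the 50-base stretches in Sox17 transcripts, 14.99% also lie in Gm37587, a transcript on the opposite strand at the 5′ end of Sox17. Whether the libraries kept strand is not given in the sources used here, so reads from the shared part cannot be assigned to a strand. Of the genes of the table next to Sox17 on the chromosome, the mitochondrial ribosomal protein gene Mrpl15 had a count ratio of 1.19 (1.05 to 1.35) and Xkr4 had 2 counts in the knockout pool and 0 in the control pool.

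**Figure D2:**
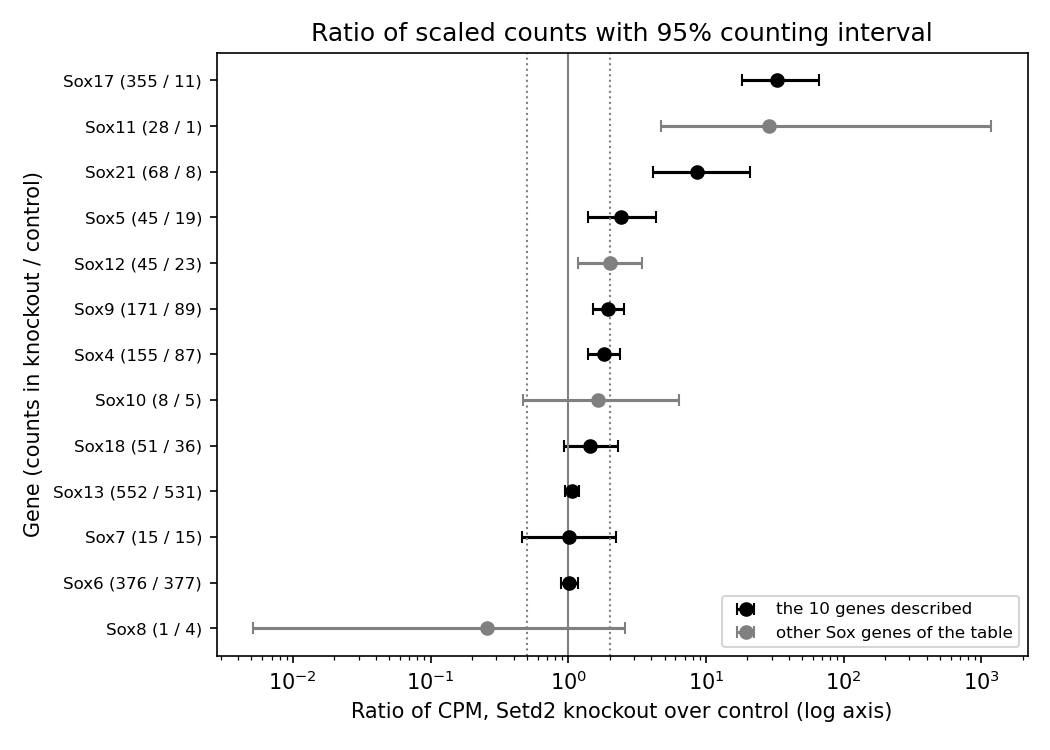
Ratio of scaled counts for each Sox gene with more than 3 counts in a library, the described genes in black and 4 other Sox genes in grey. The horizontal axis is the ratio of CPM, knockout over control, on a log scale, with 95% counting intervals as bars, a solid line at 1 and dotted lines at 2-fold; the vertical axis lists the genes with their rounded counts in the knockout and control library. The intervals of Sox17, Sox21, Sox5, Sox9 and Sox4 lie above 1, and those of Sox18, Sox13, Sox7 and Sox6 include 1.

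Sox21, a SoxB2 gene that in the nervous system opposes the activity of the SoxB1 genes (gene identifier 223227, chromosome 14, 118233232 to 118237030, minus strand), was at 2.05 FPKM in the knockout pool, with 68 counts, against 0.24 FPKM in the control pool, with 8 counts. The ratio was 8.66 (4.16 to 20.9) and the log2 ratio 1.30. Gm4675, a noncoding gene on the opposite strand that overlaps the start of Sox21, had 10 counts in the knockout pool and 0 in the control pool, and 17.8% of the 50-base stretches of Sox21 also lie in it. Sox2 had 2 counts in the knockout pool and 0 in the control pool. Both lie under the floor of 3 counts, which is 0.347 CPM in the knockout library and 0.341 CPM in the control library, so no fold is given. Sox2ot, the noncoding transcript in which the Sox2 gene lies on the same strand, was at 0.43 FPKM in the knockout pool and 0.46 FPKM in the control pool, a ratio of 0.934 (0.373 to 2.31).

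The promoter table of RefSeq (GRCm38.p6) held 11 promoters for 6 of the 10 genes (Sox2, Sox4, Sox5, Sox6, Sox13 and Sox21); Sox7, Sox9, Sox17 and Sox18 were not matched. In windows of 300 bases, from 250 before to 50 after a gene's start, CTTTGA, a core of the sites of Tcf and Lef factors that carry Wnt signals, was found on either strand in 4 of the 11, against 16% of all 32851 promoters in the table. These were 3 of the 6 Sox6 promoters and that of Sox21. ATTGTT, a core of Sox sites, was found in 1 of the 11, a Sox6 promoter, against 10.7% of all. The promoter of Sox21 is shown because it is the promoter in the table of a gene past 2-fold. It is given for the 250 bases before the start (chr14:118237031-118237280, minus strand), with the single match to CTTTGA, which lies on the other strand, in capitals.
Sox21: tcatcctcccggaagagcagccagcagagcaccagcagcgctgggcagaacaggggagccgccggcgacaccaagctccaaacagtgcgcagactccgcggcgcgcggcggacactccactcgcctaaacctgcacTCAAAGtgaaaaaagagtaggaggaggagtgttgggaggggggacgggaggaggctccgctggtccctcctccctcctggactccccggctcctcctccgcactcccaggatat
The window of Sox21 had a GC content of 65.7%, and the median over all promoters was 52.7%. A match describes these letters and is not evidence of binding.

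Sox2 and Sox21 are also known from foregut epithelia, and markers of stomach and pancreas stood higher beside Sox21 in the knockout pool. Of 12 glandular stomach markers in the table, 9 were measured, 8 were higher by 2-fold or more (7 under either scaling) and 0 lower, with a median log2 ratio of 1.86, although only 1 of the 12 reached an FPKM of 1 in the control pool and 4 were at 0 there. Their summed level was 164.6 FPKM in the knockout pool and 13.56 FPKM in the control pool. Gkn1, a gastrokine of the stomach surface, was at 22.24 FPKM in the knockout pool and 0.28 FPKM in the control pool, and Tff2, a trefoil peptide of stomach glands, was at 27.58 FPKM in the knockout pool and 0.83 FPKM in the control pool. Of 11 squamous epithelium markers, 3 were measured, 0 past 2-fold, with a summed level of 7.49 FPKM in the knockout pool and 2.55 FPKM in the control pool. Their summed counts had a ratio of 3.55 (2.42 to 5.33). By counts, the keratins Krt6a and Krt14 had ratios of 6.88 (2.40 to 27.0) and 2.75 (1.29 to 6.37). Trp63, which defines basal squamous cells and was named after its value was seen, had 3 counts in the knockout pool and 0 in the control pool.

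All 18 pancreatic acinar markers were higher by 2-fold or more in the knockout pool, with a median of 4.49 and a summed level of 2802 FPKM in the knockout pool against 75.82 FPKM in the control pool. Try5, a trypsin gene, was at 212.0 FPKM in the knockout pool and 3.06 FPKM in the control pool. On a list of pancreatic and bile duct genes written after the values had been seen, 8 of 11 were measured, 2 higher by 2-fold or more and 0 lower, with a median of 0.34. These were the secreted phosphoprotein Spp1 (22.83 FPKM in the knockout pool, 2.89 FPKM in the control pool) and the keratin Krt7 (69.23 FPKM in the knockout pool and 23.97 FPKM in the control pool). The summed level of that list was 999.4 FPKM in the knockout pool and 734.3 FPKM in the control pool, most of it the keratin Krt19, which intestinal epithelium also makes. The part of stomach, pancreas or duct tissue in the levels of Sox17, Sox21 and Sox2 was not tested. The genes nearest to Sox17 in level were sought by Euclidean distance of log2(FPKM + 1) over the 2 libraries. They were 1810009J06Rik (11.25 FPKM in the knockout pool, 0.27 FPKM in the control pool, distance 0.14), Pla2g1b, a phospholipase of pancreatic juice (14.30 FPKM in the knockout pool and 0.22 FPKM in the control pool, distance 0.30), and Snora33 (9.87 FPKM in the knockout pool and 0 FPKM in the control pool, distance 0.53). This search was added after the values had been seen. It matched genes on the same 2 values with which Sox17 was chosen, so it describes levels only. A shared source of these transcripts was not tested.

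**Figure D3:**
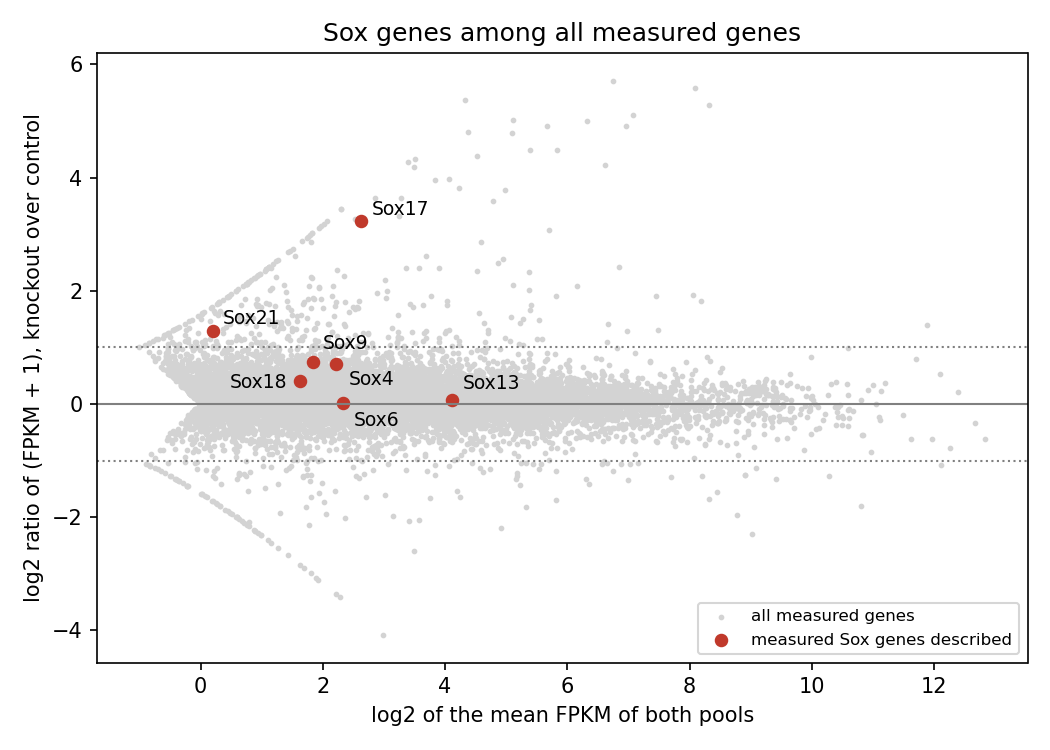
The 7 measured Sox genes among all 13253 measured genes. The horizontal axis is the log2 of the mean FPKM of both pools and the vertical axis the log2 ratio of (FPKM + 1), knockout over control; grey points are all measured genes, red points the Sox genes, and dotted lines mark 2-fold. Sox17 (3.23) and Sox21 (1.30) lie above the upper dotted line, and Sox4, Sox6, Sox9, Sox13 and Sox18 lie between the lines.

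Sox9, the SoxE gene of the crypt (gene identifier 20682, chromosome 11, 112782224 to 112787760), was at 4.72 FPKM in the knockout pool, with 171 counts, against 2.41 FPKM in the control pool, with 89 counts. Its ratio was 1.96 (1.51 to 2.56) and its log2 ratio 0.75, which did not reach the 2-fold rule. The noncoding gene 2610035D17Rik, the next gene of the table on the 3′ side of Sox9 at a distance of 256149 bases, had a similar ratio, 1.94 (1.30 to 2.91), from 76 counts in the knockout pool and 40 in the control pool. The next gene on the other side, BC006965, was at 0.42 FPKM in the knockout pool and 0.47 FPKM in the control pool. Of the 20 next neighbours of the 10 genes, 8 were measured and 1 was past 2-fold as deposited, Pinx1 beside Sox7. It was at 5.09 FPKM in the knockout pool and 2.03 FPKM in the control pool, a log2 ratio of 1.01 that lies only just past the limit.

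Genes around Sox9 in the Wnt pathway mostly stood higher beside it, and most markers of Paneth cells, goblet cells and enterocytes stood lower; the part of these cells in the level of Sox9 was not tested. Of 18 measured Wnt targets, 4 were higher by 2-fold or more, 0 were lower and 16 lay above 0, with a median of 0.53 (3 past 2-fold under either scaling). Notum, a secreted inhibitor of Wnt ligands, was at 5.84 FPKM in the knockout pool and 0.90 FPKM in the control pool, and the crypt receptor Ephb3 was at 9.94 FPKM in the knockout pool and 2.09 FPKM in the control pool. Of the HMG box factors Tcf7, Tcf7l1, Tcf7l2 and Lef1, which carry the Wnt signal, 2 were measured and none was past 2-fold; Tcf7l2 was at 11.15 FPKM in the knockout pool and 8.74 FPKM in the control pool, and Tcf7 at 2.86 FPKM in the knockout pool and 3.63 FPKM in the control pool. All 10 crypt base stem cell markers were above 0, with a median of 0.38, and 1 was higher by 2-fold or more. This was the Wnt feedback gene Axin2 (12.90 FPKM in the knockout pool, 5.59 FPKM in the control pool), which was under 2-fold after either scaling. Most of these stem cell markers, Axin2 among them, are also on the list of Wnt targets, as are Tcf7, Lef1 and the lymphatic marker Prox1. The lists are therefore not separate observations. Of 12 Paneth cell markers, 6 were lower by 2-fold or more and 1 higher, with a median of -0.99 and a summed level of 6467 FPKM in the knockout pool against 13252 FPKM in the control pool. Lyz1, the Paneth cell lysozyme, was at 716.2 FPKM in the knockout pool and 897.3 FPKM in the control pool and was named after its value was seen. Of 13 enterocyte markers, 12 were below 0, with a median of -0.62, a summed level of 26336 FPKM in the knockout pool against 37324 FPKM in the control pool and none past 2-fold, although 1 was lower by 2-fold under either scaling. Of 9 goblet cell markers, 1 was higher by 2-fold or more and 1 lower, with a median of -0.35 and a ratio of summed counts of 0.631 (0.624 to 0.639). The higher one was Retnlb, a secreted antimicrobial protein, at 70.24 FPKM in the knockout pool and 13.07 FPKM in the control pool. Of 9 cartilage genes that Sox9, Sox5 and Sox6 control in chondrocytes, 1 was measured, Col11a2, at 1.19 FPKM in the knockout pool and 0.97 FPKM in the control pool.

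Sox4, a SoxC gene (gene identifier 20677, chromosome 13, 28948919 to 28953713, minus strand), was at 6.00 FPKM in the knockout pool, with 155 counts, against 3.30 FPKM in the control pool, with 87 counts. Its ratio was 1.82 (1.39 to 2.39) and its log2 ratio 0.70. Of the 50-base stretches of Sox4, 54.1% also lie in Gm26735, a noncoding gene on the opposite strand, so the value may hold reads of both. The other SoxC genes were low. Sox12 was at 1.16 FPKM in the knockout pool and 0.58 FPKM in the control pool, a ratio of 1.99 (1.18 to 3.45), and Sox11, a gene of the embryo and of neurons, had 28 counts in the knockout pool and 1 in the control pool, a ratio of 28.5 (4.72 to 1167). The summed counts of the 3 SoxC genes had a ratio of 2.09 (1.66 to 2.65).

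Most markers of tuft cells were lower in the knockout pool, as were most of those of enterocytes, goblet and Paneth cells, and those of enteroendocrine cells were mixed. Of 9 measured tuft cell markers, 8 were below 0 and none was past 2-fold, with a median of -0.29; 1 was lower by 2-fold under either scaling. The leukotriene synthase Ltc4s was at 4.23 FPKM in the knockout pool and 8.99 FPKM in the control pool, and Avil, an actin-binding protein, was at 9.73 FPKM in the knockout pool and 6.80 FPKM in the control pool. Of 13 enteroendocrine markers, 1 was higher by 2-fold or more and 2 lower, with a median of 0.06 that became -0.01 with TMM; 3 were lower under either scaling. Scg5, a granin of secretory granules, was at 2.95 FPKM in the knockout pool and 0.84 FPKM in the control pool, and Gcg, the proglucagon gene, was at 0.63 FPKM in the knockout pool and 6.21 FPKM in the control pool.

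The SoxD genes included the most abundant Sox gene, Sox13; Sox13 and Sox6 stood nearly level, and Sox5 did not. Sox13 (gene identifier 20668, chromosome 1, 133382303 to 133424377) was at 17.85 FPKM in the knockout pool, with 552 counts, and at 16.85 FPKM in the control pool, with 531 counts, a ratio of 1.06 (0.939 to 1.20). Sox6 (chromosome 7, 115470872 to 116038796) was at 5.07 FPKM in the knockout pool and 5.0 FPKM in the control pool, from 376 counts in the knockout library and 377 in the control library, a ratio of 1.02 (0.879 to 1.18). A 2-fold difference lies outside both intervals, and the signs of both genes turned after scaling by the median ratio or by TMM factors. Sox5 (chromosome 6, 143828425 to 144781977) was low in both, at 0.73 FPKM in the knockout pool, with 45.42 counts, and 0.31 FPKM in the control pool, with 19.32 counts. Its ratio of 2.41 (1.38 to 4.37) lay above 1, but it was not measured by the FPKM rule, and 8.98% of its 50-base stretches also lie in other genes, nearly all in the antisense transcript Sox5os1. The genes nearest to Sox13 in level over the 2 libraries were Golga5 (17.89 FPKM in the knockout pool, 16.84 FPKM in the control pool), Nsmce1 (17.91 FPKM in the knockout pool and 16.83 FPKM in the control pool) and Lztr1 (17.96 FPKM in the knockout pool and 16.97 FPKM in the control pool).

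Beside the SoxD genes, smooth muscle markers stood close to 0 on the log2 scale, and most fibroblast markers and the globin transcripts were higher. Smooth muscle markers had a median of -0.03 over 6 measured genes and fibroblast markers a median of 0.15 over 7, which was 0.05 with TMM, with none past 2-fold in either list. All 7 fibroblast markers were above 0 (5 under either scaling), with a ratio of summed counts of 1.21 (1.16 to 1.26). Among them the growth factor receptor Pdgfra was at 9.70 FPKM in the knockout pool and 5.57 FPKM in the control pool, a ratio of 1.74 (1.52 to 2.00). Of 9 B and T cell markers, 2 were lower by 2-fold or more and 0 higher, with a median of -0.30. Transcripts of red cells, whose precursors use Sox6 in mice, were higher, with all 4 measured genes past 2-fold. Hbb-bs, a beta-globin, was at 116.6 FPKM in the knockout pool and 26.81 FPKM in the control pool, whereas Alas2, the haem synthesis enzyme of red cell precursors, was at 0.72 FPKM in the knockout pool and 0.59 FPKM in the control pool.

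The remaining SoxE genes were near the limit of detection. Sox10, the factor of enteric glia and neural crest, had 8 counts in the knockout pool and 5 in the control pool, a ratio of 1.63 (0.470 to 6.33), and Sox8 had 1 in the knockout pool and 4 in the control pool, a ratio of 0.255 (0.00517 to 2.57). Sox15 had 1 count in each. Of 11 enteric glia and neuron markers, 5 were measured, 1 higher by 2-fold or more and 0 lower, with a median of 0.46. The higher gene was Foxd3, a neural crest factor, at 1.65 FPKM in the knockout pool and 0.24 FPKM in the control pool. The glial proteins S100b and Gfap, named after their values were seen, were low: S100b was at 0.35 FPKM in the knockout pool and 0.48 FPKM in the control pool, and Gfap at 0.34 FPKM in the knockout pool and 0.54 FPKM in the control pool.

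**Figure D4:**
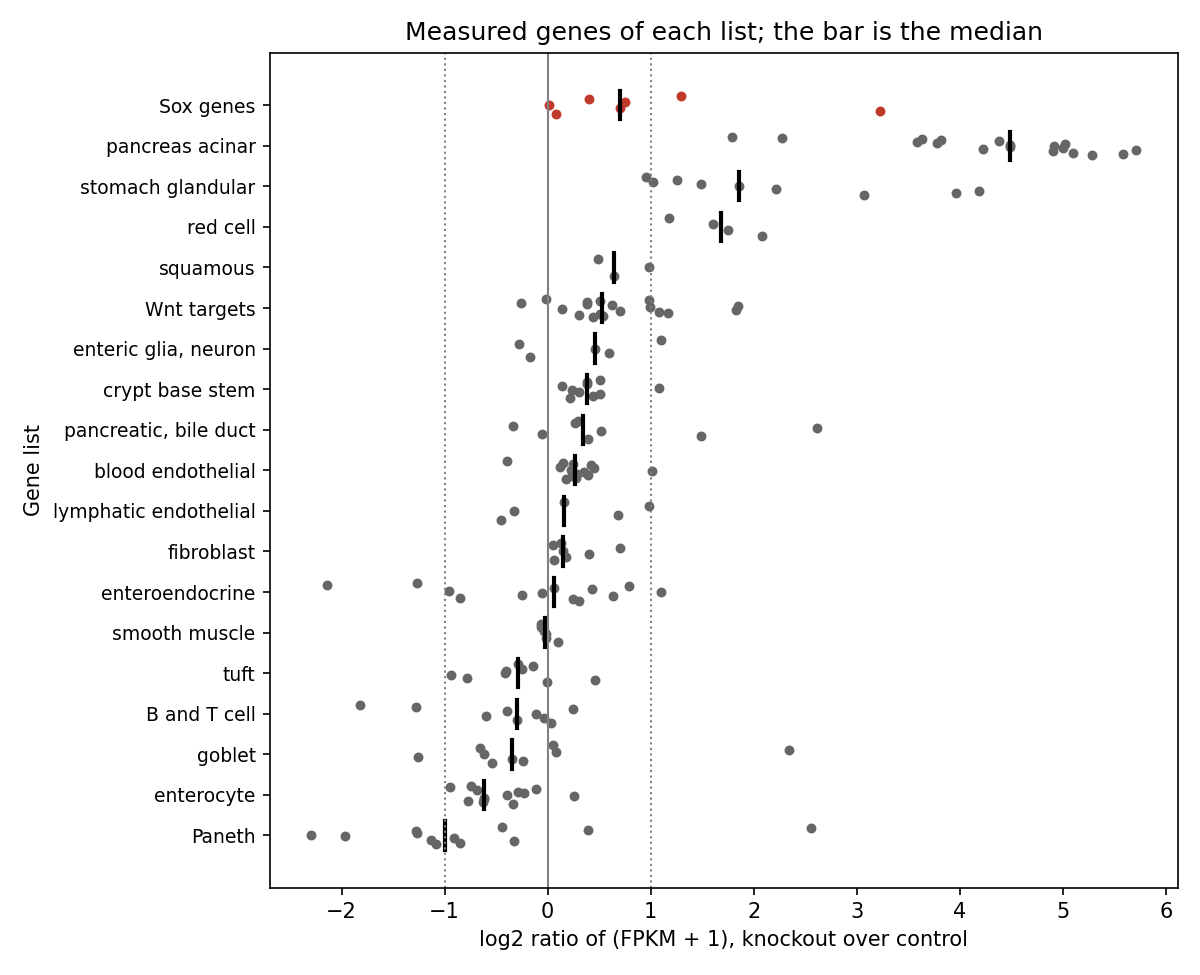
The 7 measured Sox genes beside the measured genes of 18 lists. The horizontal axis is the log2 ratio of (FPKM + 1), knockout over control, each point is a gene, the black bar is the median of the list and dotted lines mark 2-fold; lists run down the vertical axis with the Sox genes in red at the top. The Sox genes spread from 0.02 to 3.23, the pancreas list has the highest median, 4.49, and the Paneth list the lowest, -0.99.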

How the data were processed

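RNA-seq of intestine was analysed from 2 libraries, 1 per genotype. BWA, Bowtie2 and RSEM were used with the mm10 build, per the submitters' processing notes; versions are not given in the sources used here. Per the file headers, the deposited values are expected counts, FPKM and transcript length per gene; the deposited series table repeats the FPKM and puts 0 for genes absent from a sample file. Expected counts were rounded to whole numbers for intervals. Count ratios were scaled to the library totals, with exact Clopper-Pearson intervals (SciPy 1.17.1), and FPKM intervals are exact Poisson intervals of the counts. The ratio interval was run on simulated counts that held counting error only, as the method assumes. That run checks the code and says nothing of variation between mice. TMM factors came from edgeR 4.0.16. Coordinates, transcripts and shared 50-base stretches came from GENCODE M21, neighbours and promoters from RefSeq. The Sox genes, gene lists, rule and alternatives were chosen with earlier results of these data known. Beside the Sox genes and Setd2, text names for each list at most the 2 highest and 2 lowest members and the most abundant; exceptions are marked. Counting intervals cover counting error only. Some sequences and 1 list gene are not reported here.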

Additional observations from a re-analysis of the deposited data

How the results depend on the processing

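The count of Sox genes past 2-fold was 2 as reported, and these were Sox17 and Sox21 under every alternative except a filter of FPKM 5 or more, which left 4 genes and a count of 1, Sox17. The median log2 ratio of 0.70 ranged from 0.39 with that filter to 0.86 with a pseudocount of 0.01. For Sox17 the log2 ratio ranged from 3.13 (TMM scaling) to 4.94, and for Sox21 from 1.23 to 3.04, the higher values with a pseudocount of 0.01. The signs of Sox6, Sox7 and Sox13 turned after scaling by the median ratio or by TMM factors. Of 7 counting intervals, 4 lay above 1 under both scalings, as reported. The share of all measured genes with such an interval was 28% as reported and was not worked out under the scalings. Over all measured genes, the median was 0.08 as reported and -0.01 with TMM. The count of all measured genes higher by 2-fold or more also changed. It was 369 as reported, 758 with a pseudocount of 0.01 and 315 with TMM. A minimum of 50 counts and the inclusion of all 15 Sox genes were alternatives added after the data were seen; neither changed the count. No paired analysis was possible because each genotype had 1 library, and for the same reason no replicate could be left out. Genes with few counts, such as Sox2, Sox8, Sox10 and Sox15, have too little depth here for any but large differences.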
